A study of Mus musculus with 9 samples.

Results

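The Wnt genes described here are 47 mouse genes that encode Wnt ligands, their receptors, their secreted inhibitors and a few intracellular components and target genes. They were chosen by the gene name printed beside each probe in the scanner files, and they are 47 of the 27962 gene names on the array. There were 19 ligands, 14 receptors and coreceptors, 8 secreted inhibitors and 6 intracellular components or targets. A gene was read from 1 probe, the tested one with the brightest mean intensity over both channels. The study sorted primary prostate cells of BL6 mice by FACS (fluorescence-activated cell sorting) and compared the RNA of both sorted fractions. The marker-positive cells, labelled stem cells, lacked lineage markers and carried CD44, CD133, Sca-1 and CD117 (3 arrays). The marker-negative cells, labelled non-stem cells, lacked lineage markers and all of those surface proteins (6 arrays). Both fractions came from the same strain and tissue, with no treatment named, and the ages and numbers of mice are not given in the sources used here. Every array carried sample RNA in Cy5 and a pooled mouse reference RNA in Cy3, so a level below is the log2 ratio of sample over pool, and its differences are marker-positive minus marker-negative.

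Wnt proteins are secreted signals that bind a Frizzled receptor together with the coreceptor Lrp5 or Lrp6. In the canonical branch this stops the breakdown of beta-catenin (Ctnnb1), which then joins the DNA-binding factors Tcf7 and Lef1 and switches on targets such as Axin2, Nkd1 and Sp5. Secreted proteins of the Sfrp, Dkk and Wif families hold the signal back outside the cell, and Lgr4 and Lgr5 bind R-spondins, which strengthen it. In the prostate, Wnt signals are known to pass between the stroma and the epithelium during budding and regrowth.

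Of the Wnt genes, Wnt11, Fzd1 and Sp5 passed the test between the fractions, so the sequences before their start sites are shown. These are the 250 bases upstream of the RefSeq start in build GRCm38.p6, read 5′ to 3′ on the gene's strand. Wnt11 (first of 2 listed starts) lies at chr7:98834862-98835111 on the plus strand, Sp5 at chr2:70474673-70474922 on the plus strand, and Fzd1 at chr5:4758217-4758466 on the minus strand. Capitals mark the letters CTTTGAT, a core to which Tcf and Lef factors bind, or the same core on the other strand, ATCAAAG.
Wnt11: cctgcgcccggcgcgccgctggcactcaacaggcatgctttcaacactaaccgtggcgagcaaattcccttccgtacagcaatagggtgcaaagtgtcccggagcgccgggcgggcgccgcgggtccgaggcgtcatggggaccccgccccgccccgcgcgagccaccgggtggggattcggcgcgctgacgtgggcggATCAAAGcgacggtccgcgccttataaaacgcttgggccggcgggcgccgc
Sp5: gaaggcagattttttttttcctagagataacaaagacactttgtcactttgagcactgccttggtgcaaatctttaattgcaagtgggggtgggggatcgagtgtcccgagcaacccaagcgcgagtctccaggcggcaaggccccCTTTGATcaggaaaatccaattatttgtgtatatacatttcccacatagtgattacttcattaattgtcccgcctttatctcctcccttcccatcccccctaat
Fzd1: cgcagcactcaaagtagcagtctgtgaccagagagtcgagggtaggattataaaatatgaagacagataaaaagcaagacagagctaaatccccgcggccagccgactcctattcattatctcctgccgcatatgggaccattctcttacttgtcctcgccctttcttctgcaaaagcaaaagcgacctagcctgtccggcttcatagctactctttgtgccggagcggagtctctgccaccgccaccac
The Wnt11 window held the core with its last base 45 before the start, and the Sp5 window held it 98 before the start. The Fzd1 window and the window at the second Wnt11 start did not hold these letters. Over all genes of the promoter table, 1005 of 27025 (3.72%) held the core on either strand, against 3 of the 33 Wnt genes that the table lists (9.09%: Wnt11, Sp5 and Wnt5b). A match of letters is a description of the window and not a binding site.

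Marker-positive replicate 3 stood apart from the other arrays before any gene was considered. Its Cy5 signal was well above background for 45.5% of probes, against 67.3% and 69.3% on marker-positive replicates 1 and 2 and 47.5% to 69.5% on the marker-negative arrays. Across probes, its log2 ratios correlated at 0.607 and 0.580 with marker-positive replicates 1 and 2, which correlated at 0.920 with each other. With the marker-negative arrays it correlated at 0.490 (replicate 2) to 0.674 (replicate 6), a range that holds both of those values. Differences that rest on it are given below with and without it. Leaving it out also raised the calls over all genes, at a limma adjusted p under 0.05. They went from 314 higher and 337 lower to 919 and 493. Of the genes for the sorted surface proteins, Ly6a (Sca-1), Kit (CD117) and Cd44 were higher in marker-positive cells, by 3.93, 3.45 and 2.06 on the log2 scale (limma adjusted p = 0.0132, 0.0460 and 0.0166), whereas Prom1 (CD133) differed by -0.44 (adjusted p = 0.766). The prostate secretory markers averaged 5.91, 6.04 and 5.36 on the marker-positive arrays and 7.42 to 8.45 on the marker-negative ones, with 3 of the 5 measured genes called lower. The labels do not say that the arrays of a fraction came from separate animals, so a p-value here reflects how far these arrays spread, and that spread may be technical. In sorted bulk RNA, fewer cells of a type and less RNA per cell cannot be told apart.

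Most of the pathway was detectable in both fractions. On marker-positive replicates 1 to 3, 40, 40 and 18 of the 47 genes were well above background in Cy5, against 24 to 38 on the marker-negative arrays. At least 1 array detected 41 of the genes in marker-positive cells and 41 in marker-negative cells, while the ligands Wnt3a, Wnt5a and Wnt16 did not rise well above background anywhere. The 8 secreted inhibitors were all detected on marker-positive replicates 1 and 2 and 2 of them on replicate 3, against 3 to 6 of them on the marker-negative arrays. The 14 receptors were detected in numbers of 13, 12 and 6 on the marker-positive arrays, against 7 to 14 on the marker-negative arrays. The low counts on marker-positive replicate 3 and marker-negative replicate 3 went with their low share of probes detected overall (45.5% and 47.5%), and its part in the counts was not tested.

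**Figure D1:**
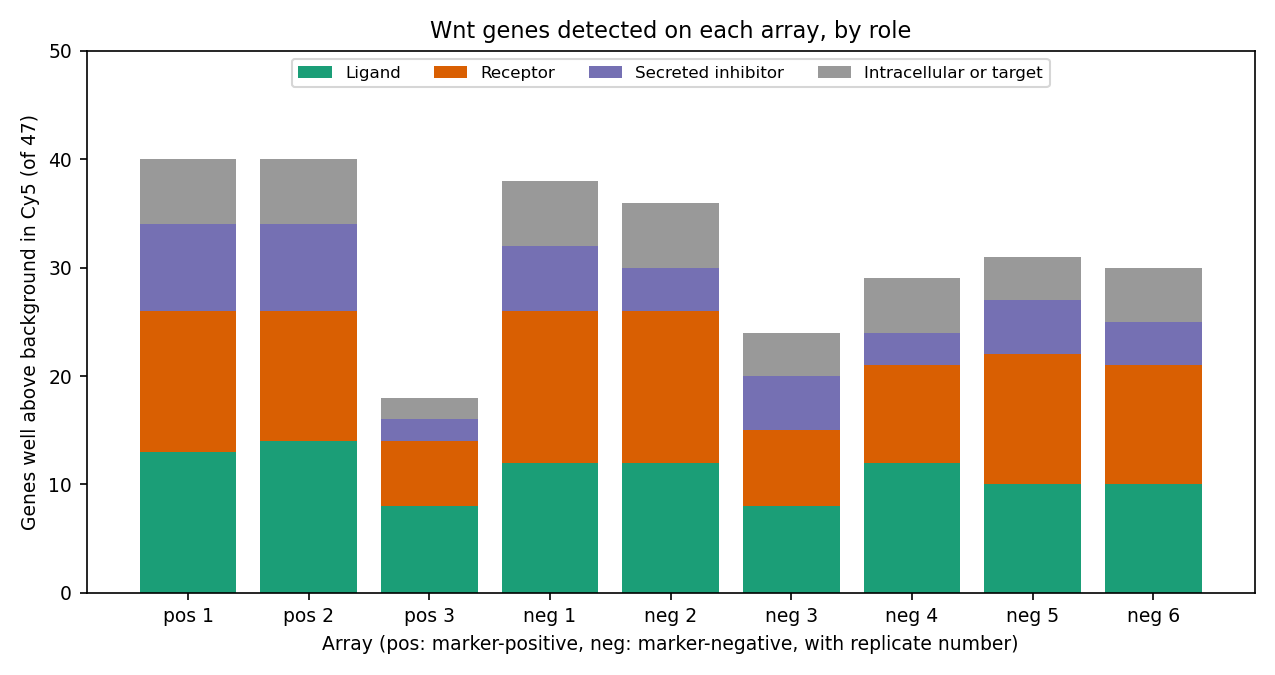
Number of the 47 Wnt genes well above background in the sample channel (vertical axis) on each array (horizontal axis, marker-positive left of marker-negative), with colours for the 4 roles. Marker-positive replicates 1 and 2 have 40 genes each and replicate 3 has 18, against 24 to 38 on the marker-negative arrays.

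A gene was tested where its probe passed the scanner's background test in Cy5 on 3 or more of the 9 arrays, which 39 of the 47 Wnt genes met. Wnt11, a ligand, and Fzd1, a Frizzled receptor, were higher in marker-positive cells, and Sp5, a transcription factor and direct Wnt target, was lower. Of all 20001 genes tested, 1.57% were called higher and 1.68% lower at a limma adjusted p under 0.05, so 2 and 1 calls among 39 genes stand beside that background. The median difference over the 39 genes was 0.14, against -0.01 over all genes tested, and the median size of a difference was 0.67, against 0.37. The Wnt genes were chosen with earlier results of these data known, so these contrasts are descriptions only. The fractions did not overlap, with all marker-positive arrays higher, for Wnt11, Fzd1 and Fzd7, and with all of them lower for Sp5 and Fzd5. Over all tested genes, groups did not overlap in 5.12% with marker-positive arrays higher and in 6.47% with them lower. At an unadjusted p under 0.05, 12 of the 39 passed, against 3908 of all 20001.

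**Figure D2:**
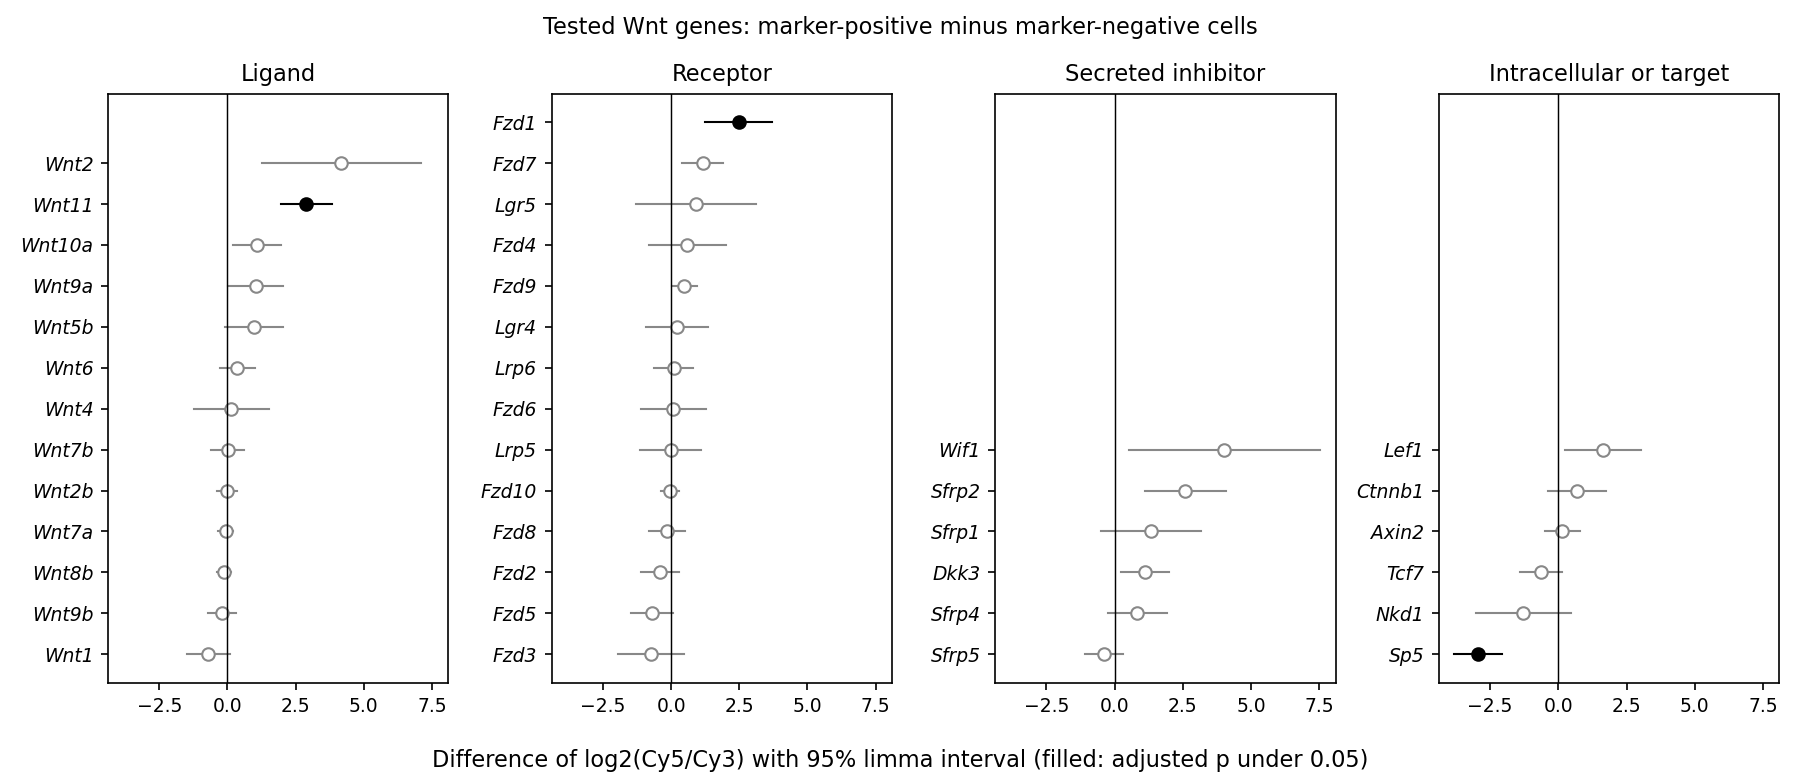
Difference of the log2 ratio, marker-positive minus marker-negative (horizontal axis), for each tested Wnt gene in 4 panels by role, with 95% limma intervals and filled points for an adjusted p under 0.05. Wnt11 and Fzd1 lie right of 0 at 2.90 and 2.48, Sp5 lies left at -2.94, and the wide intervals of Wnt2 and Wif1 start at 1.28 and 0.51.

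Among the ligands, Wnt11 was the 1 of 13 tested that changed, and Wnt2 was far higher on 2 of the 3 marker-positive arrays than on the other arrays. Wnt11, which acts mostly through the beta-catenin-independent branch and guides cell movements in embryos, was read by a probe at chr7:94885377-94885437 of the array's build mm7. Its log2 ratio was 4.32, 3.74 and 3.31 on marker-positive replicates 1 to 3, against a lowest, median and highest value of 0.13, 0.99 and 1.78 on the marker-negative arrays. Even the lowest marker-positive array, replicate 3, lay above every marker-negative array, so the groups did not overlap. The means were 3.79 ± 0.51 (SD, n = 3) in marker-positive and 0.90 ± 0.63 (SD, n = 6) in marker-negative cells. The difference of 2.90 (SE 0.42, 95% interval 1.95 to 3.84), or 7.44-fold, had a limma adjusted p of 0.00776, and without marker-positive replicate 3 it was 3.13 (adjusted p = 0.00882). Within the slides that held both fractions it was 4.05 on slide 1 and 3.07 on slide 2. With slide as a fixed block it was 3.49 and no longer passed (adjusted p = 0.0793).

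Wnt2, a canonical ligand known from mesenchyme of several organs, was read at chr6:17929740-17929799 (mm7). The probe gave log2 ratios of 6.54, 6.88 and 0.03 on marker-positive replicates 1 to 3, against a lowest, median and highest value of -0.36, 0.13 and 1.49 on the marker-negative arrays. Marker-positive replicates 1 and 2 were far above every other array, and replicate 3 lay among the marker-negative values, where its signal was not well above background. The difference over all arrays was 4.18 (SE 1.30, 95% interval 1.28 to 7.08) and did not pass the test (limma adjusted p = 0.114). Without marker-positive replicate 3 it was 6.41 (adjusted p = 0.000653), and with slide as a fixed block, which sets aside that array's slide, it was 6.44 (adjusted p = 0.0297). Leaving out marker-positive replicate 1 or 2 instead gave 3.15 and 2.98, which did not pass (adjusted p = 0.376 and 0.362).

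Wnt10a, a canonical ligand of epithelia and their appendages, had log2 ratios of -1.47, -1.06 and -2.37 on the marker-positive arrays, against a lowest, median and highest value of -3.28, -2.88 and -1.92 on the marker-negative arrays. Marker-positive replicate 3 fell inside the marker-negative range, and the difference of 1.09 (SE 0.40) did not pass (limma adjusted p = 0.166), nor did the 1.46 without that array (adjusted p = 0.0638). The other 10 tested ligands differed by between -0.70 (Wnt1) and 1.03 (Wnt9a), with adjusted p-values from 0.242 to 0.999. They include Wnt4, Wnt5b, Wnt6, Wnt7a, Wnt7b, Wnt2b, Wnt8b and Wnt9b. For Wnt5b the chosen probe gave 0.98 and a second tested probe gave -0.23, so its probes disagreed in direction. For Wnt6 the chosen probe gave 0.36 and a second tested probe gave 1.09 (limma adjusted p = 0.384), which lies outside that range. The 13 tested ligands had a median difference of 0.13. Wnt3, Wnt3a, Wnt5a, Wnt8a, Wnt10b and Wnt16 were detected on too few arrays to be tested.

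Among the receptors, Fzd1 was the 1 of 14 that changed, and the coreceptors Lrp5 and Lrp6 had differences near 0. Fzd1 was read at chr5:4760009-4760068 (mm7). Its log2 ratio was 1.14, 1.0 and 0.30 on marker-positive replicates 1 to 3, against a lowest, median and highest value of -3.36, -1.48 and -0.65 on the marker-negative arrays. All marker-positive arrays were above the pool and all marker-negative ones below it. The means were 0.81 ± 0.45 (SD, n = 3) in marker-positive and -1.67 ± 0.96 (SD, n = 6) in marker-negative cells. The difference of 2.48 (SE 0.55, 95% interval 1.25 to 3.71), or 5.57-fold, had a limma adjusted p of 0.0430, close to the threshold. It was 2.30 within slide 1 and 3.65 within slide 2, and 2.74 without marker-positive replicate 3 (adjusted p = 0.0388). The call was lost when marker-positive replicate 1 or 2 was left out (2.31 and 2.39, adjusted p = 0.173 and 0.151) or marker-negative replicate 1, 2, 3 or 6 (2.58, 2.42, 2.60 and 2.45, adjusted p = 0.0693, 0.0822, 0.0523 and 0.0707). It was also lost with slide as a fixed block (3.07, adjusted p = 0.109), with median centring (2.68, 0.105), with the scanner's processed signals (3.02, 0.0504) and without the filter on dim probes (adjusted p = 0.0559).

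Fzd7, a Frizzled receptor found on stem cells of several epithelia, had log2 ratios of 0.00, -0.18 and -0.99 on the marker-positive arrays, against a lowest, median and highest value of -2.10, -1.52 and -1.10 on the marker-negative arrays. The groups did not overlap, yet marker-positive replicate 3 came close to the highest marker-negative array. The difference was 1.16 (SE 0.33, limma adjusted p = 0.0948), and 1.46 without marker-positive replicate 3 (adjusted p = 0.0348). Leaving out marker-positive replicate 1 or 2 instead gave 0.96 and 1.05 (adjusted p = 0.331 and 0.287). A second tested Fzd7 probe gave -0.41 (adjusted p = 0.481), so the probes disagreed in direction. Fzd9 had ratios of 0.56, 0.56 and -0.19 on the marker-positive arrays, against a lowest, median and highest value of -0.37, -0.19 and 0.07 on the marker-negative arrays. Its difference of 0.49 (SE 0.21) had an adjusted p of 0.228, and without marker-positive replicate 3, which matched the marker-negative median, it was 0.74 (adjusted p = 0.0397). Without marker-positive replicate 1 or 2 it was 0.36 each time (adjusted p = 0.551 and 0.554).

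The other 11 receptors differed by between -0.73 (Fzd3) and 0.91 (Lgr5), with limma adjusted p-values from 0.294 to 0.990. Fzd5 went the other way from Fzd7 without overlap, at 0.53, 0.37 and 0.30 on the marker-positive arrays and 0.54 to 1.79 on the marker-negative arrays, and its difference of -0.71 (SE 0.35) had an adjusted p of 0.294. Lgr5, an R-spondin receptor and stem cell marker of the gut, was 3.78, 4.55 and -0.23 on the marker-positive arrays, against -0.03 to 2.83 on the marker-negative arrays (difference 0.91, adjusted p = 0.670, and 2.38 without marker-positive replicate 3, adjusted p = 0.0740). Its first 2 marker-positive arrays were the highest of all and the third was the lowest. Fzd3 was well above background on 0 of 3 marker-positive arrays, against 3 of 6 marker-negative arrays. Its ratios of -0.21, -0.09 and -0.33 on the marker-positive arrays lay inside the marker-negative range of -0.49 to 2.01 (adjusted p = 0.505). Lrp5, Lrp6 and Lgr4 differed by -0.02, 0.09 and 0.21, and the other 2 tested Lgr4 probes gave 0.10 and -0.21.

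**Figure D3:**
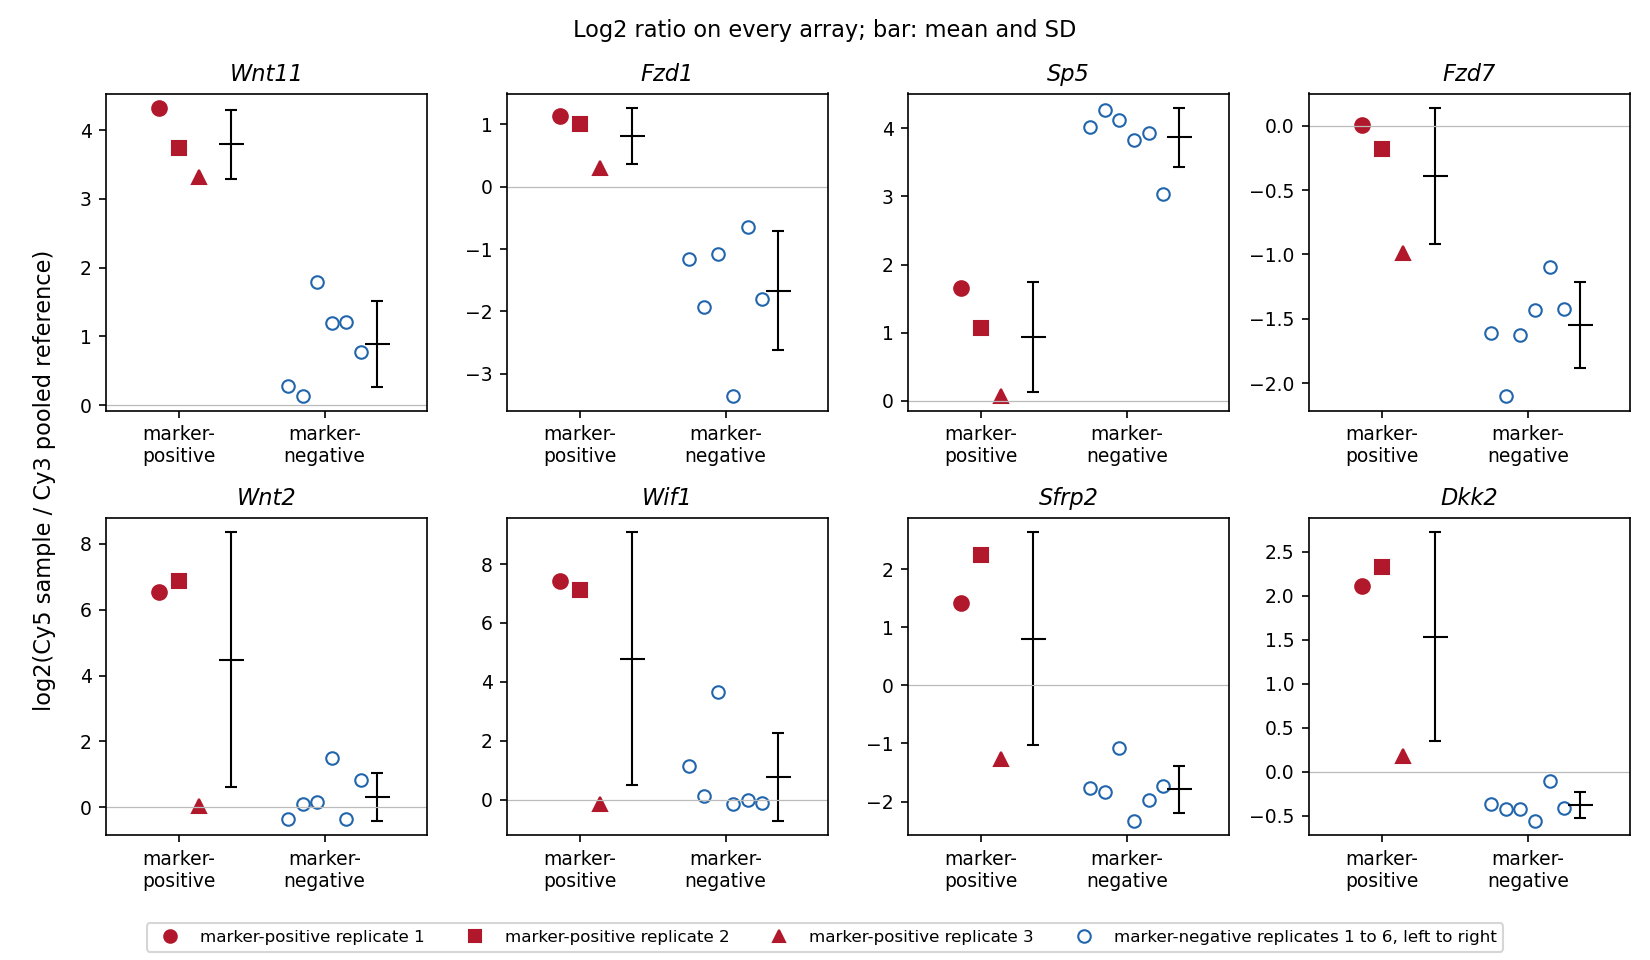
Log2 ratio of sample over reference pool (vertical axis, a separate scale in each panel) on every array for 8 Wnt genes, marker-positive left of marker-negative, with horizontal bars at the mean and whiskers of 1 SD. Wnt11, Fzd1, Sp5 and Fzd7 separate the fractions, whereas for Wnt2, Wif1 and Sfrp2 marker-positive replicates 1 and 2 are high and replicate 3 (triangle) lies within the marker-negative range or, for Wif1, just below it.

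None of the 6 tested secreted inhibitors passed the test, though 5 of them had positive differences, against 9782 of all 20001 genes, and their median difference was 1.22, against -0.01. This contrast is a description too, as the genes were chosen with earlier results of these data known. The smallest adjusted p was 0.0667, and 3 of the 6 had an unadjusted p under 0.05, against 3908 of the 20001. Sfrp2, a secreted Frizzled-related protein that binds Wnt ligands, was read at chr3:83878918-83878977 (mm7). Log2 ratios were 1.41, 2.25 and -1.26 on marker-positive replicates 1 to 3, against a lowest, median and highest value of -2.33, -1.80 and -1.08 on the marker-negative arrays. Marker-positive replicates 1 and 2 were above every marker-negative array, and replicate 3 lay near the top of the marker-negative range. The difference was 2.59 (SE 0.66, 95% interval 1.11 to 4.06, limma adjusted p = 0.0667). With median centring it was 2.68 and with the scanner's processed signals 2.80, and neither passed (adjusted p = 0.243 and 0.131). Among probes detected in both channels on all arrays the same 2.59 passed (adjusted p = 0.0448). With slide as a fixed block, which sets aside the slide of marker-positive replicate 3, it was 3.84 (adjusted p = 0.0480). Without marker-positive replicate 3 it was 3.61 (adjusted p = 0.00253). Leaving out marker-positive replicate 1 or 2 instead gave 2.28 and 1.86, which did not pass (adjusted p = 0.246 and 0.234).

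Wif1, which binds Wnt proteins directly, was read at chr10:120496251-120496310 (mm7). Its log2 ratio was 7.41, 7.12 and -0.16 on marker-positive replicates 1 to 3, against a lowest, median and highest value of -0.15, 0.05 and 3.65 on the marker-negative arrays. Marker-positive replicate 3 was the lowest array of all, and marker-negative replicate 3 was the highest of its fraction. Wif1 was well above background on 2 of 3 marker-positive and 2 of 6 marker-negative arrays, and in the reference channel on 3 of 9 arrays, so the ratio was set largely against background. The difference of 4.02 (SE 1.57, 95% interval 0.51 to 7.53) did not pass (limma adjusted p = 0.195), and without marker-positive replicate 3 it was 6.50 (adjusted p = 0.00786). Leaving out marker-positive replicate 1 or 2 instead gave 2.71 and 2.86, which did not pass (adjusted p = 0.533 and 0.513).

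Dkk2, which blocks the coreceptors Lrp5 and Lrp6, was detected on too few arrays to be tested (chr3:131976322-131976381, mm7). Its ratios on the log2 scale were 2.11, 2.32 and 0.17 on the marker-positive arrays, against a lowest, median and highest value of -0.56, -0.42 and -0.10 on the marker-negative arrays. It was not well above background in marker-negative cells, nor on marker-positive replicate 3, so 2 of 3 marker-positive arrays measured it. The mean log2 Cy5 intensity of all 3 marker-positive arrays was 3.54-fold above a floor for marker-negative cells. The floor took, on each marker-negative array, the lowest signal well above background, or the Dkk2 signal where that was higher. Because the mean includes marker-positive replicate 3, where Dkk2 was not measured, the 3.54-fold is not a strict lower bound. With no filter on dim probes the Dkk2 difference was 1.92 (limma adjusted p = 0.0417), and the untested difference of means without marker-positive replicate 3 was 2.60. Dkk3, a divergent member of the Dkk family, had ratios of -0.13, 0.74 and -0.87 on the marker-positive arrays, against a lowest, median and highest value of -1.74, -1.14 and -0.74 on the marker-negative arrays. The groups overlapped only through marker-positive replicate 3, and the difference was 1.10 (SE 0.39, adjusted p = 0.159), or 1.49 without that array (adjusted p = 0.0549). Sfrp1, Sfrp4 and Sfrp5 differed by 1.34, 0.83 and -0.38 (adjusted p = 0.416, 0.394 and 0.557), and without marker-positive replicate 3 by 2.35, 1.39 and -0.72 (adjusted p = 0.0953, 0.104 and 0.171). Dkk1 was detected on 2 marker-positive arrays and no marker-negative array, and was not tested.

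Markers of fibroblasts were highest on marker-positive replicates 1 and 2, as Wnt2, Sfrp2, Wif1 and Dkk2 were. The mean log2 ratio of 10 fibroblast genes, all measured, was 1.40, 1.23 and -3.24 on marker-positive replicates 1 to 3, against -3.38 to -0.49 on the marker-negative arrays. The list was higher on marker-positive replicates 1 and 2 than on every other array, as these Wnt genes were. On replicate 3 the list, Wnt2 and Sfrp2 lay within the marker-negative range, Wif1 lay just below it at -0.16 (lowest marker-negative array -0.15), and Dkk2 lay above it at 0.17 (highest marker-negative array -0.10). Within the marker-negative arrays Wnt2 was highest on replicates 4 and 6 (1.49 and 0.81), where the list was lowest (-2.51 and -3.38). Wif1 and Sfrp2 were highest on marker-negative replicate 3 (3.65 and -1.08), as the list was (-0.49). Dkk2 was not well above background on the marker-negative arrays. None of the 10 fibroblast genes was called, and none was undetected on all arrays of a fraction. The endothelial list was likewise highest on marker-positive replicates 1 and 2. It was at 3.08, 4.65 and 0.75 on the marker-positive arrays, against 0.45 to 1.50 on the marker-negative arrays, with 1 of 8 genes called higher. The part of these cell types in the 4 Wnt genes was not tested.

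**Figure D4:**
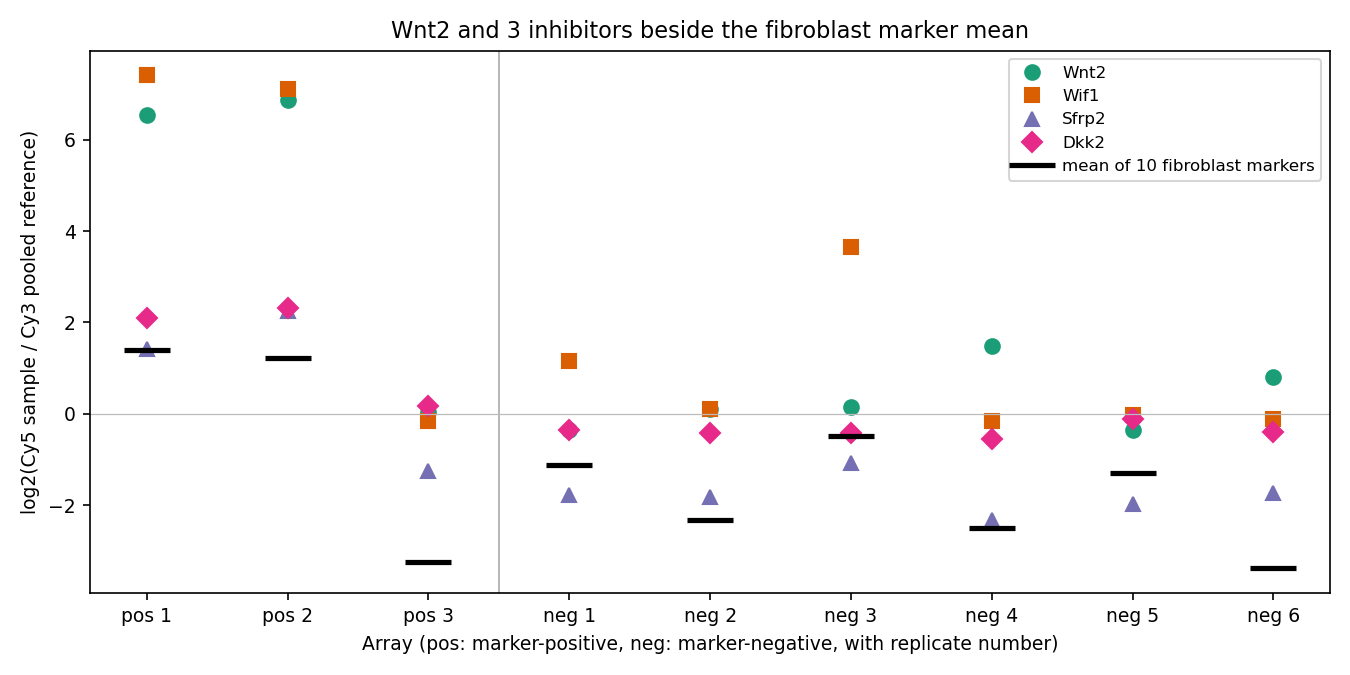
Log2 ratio of sample over reference pool (vertical axis) on each array (horizontal axis, marker-positive left of marker-negative) for Wnt2, Wif1, Sfrp2 and Dkk2, with a black bar for the mean of 10 fibroblast genes. The bar stands at 1.40 and 1.23 on marker-positive replicates 1 and 2 and at -3.24 on replicate 3, against -3.38 to -0.49 on the marker-negative arrays.

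Wnt11 and Fzd1 were higher on all 3 marker-positive arrays than on any marker-negative array, and the means of the macrophage and mast cell lists were too. The macrophage list of 8 genes averaged 4.40, 3.22 and 3.77 on the marker-positive arrays, against -0.28 to 2.73 on the marker-negative arrays, with 3 genes called higher. Mrc1 and Lyz2 differed by 6.01 and 4.88, whereas Csf1r, Adgre1, Cd68, C1qa and Cd14 overlapped between the fractions. The mast cell list of 7 genes averaged 4.15, 3.64 and 4.95, against 0.28 to 3.18, with 4 genes called higher, 1 of which, Kit, encodes a protein used for the sort. In that list Cma1, Mcpt4 and Ms4a2 overlapped between the fractions. The basal epithelial list averaged 1.84, 2.44 and 0.17 on the marker-positive arrays, against 0.18 to 1.94 on the marker-negative arrays. Its 1 gene called higher, Trp63, was at 1.81, 2.85 and 0.75, against -0.81 to 0.43. The endothelial gene called higher, Vwf, was at 3.52, 4.87 and 3.56, against -1.24 to 1.17. The smooth muscle list averaged -0.24, 0.68 and -1.04, against -1.60 to 0.15, with none called. The part of all these cell types and of fibroblasts in the Wnt11 and Fzd1 differences was not tested.

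Among the intracellular components and targets, Sp5 was the 1 of 6 that changed, and the other targets had differences of both signs. Sp5 encodes a zinc finger factor that beta-catenin with Tcf and Lef factors switches on directly. Its log2 ratio was 1.66, 1.06 and 0.06 on marker-positive replicates 1 to 3, against a lowest, median and highest value of 3.04, 3.98 and 4.26 on the marker-negative arrays. Every marker-positive array lay below every marker-negative array, and marker-positive replicate 3 was not well above background. The means were 0.93 ± 0.81 (SD, n = 3) in marker-positive and 3.87 ± 0.43 (SD, n = 6) in marker-negative cells. The difference of -2.94 (SE 0.39, 95% interval -3.81 to -2.06), a ratio of 0.130, had a limma adjusted p of 0.00517, and it was -2.51 without marker-positive replicate 3 (adjusted p = 0.00800). Within slides it was -2.36 and -2.98, and with slide as a fixed block it was -2.71 and no longer passed (adjusted p = 0.0817). The reference channel detected Sp5 on 5 of 9 arrays, and the files give no position for its probe. The luminal list of 8 epithelial genes averaged 2.21, 2.03 and -0.64 on the marker-positive arrays, against 1.76 to 3.50 on the marker-negative arrays, with none called. Lists that lay lower on all marker-positive arrays, as Sp5 did, were those of the prostate secretory, lymphocyte and erythroid genes. The 3 measured erythroid genes averaged 1.74, 1.79 and 1.45 on the marker-positive arrays, against 3.66 to 5.63 on the marker-negative arrays, with 2 called lower. The part of these cell types in the Sp5 difference was not tested.

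Lef1, a DNA-binding partner of beta-catenin, was read at chr3:131060609-131060668 (mm7). Its log2 ratio was -2.21, -0.47 and -0.38 on the marker-positive arrays, against a lowest, median and highest value of -3.66, -2.82 and -1.16 on the marker-negative arrays. Here marker-positive replicate 1 overlapped the marker-negative range and replicate 3 was the highest array. The difference was 1.64 (SE 0.63, limma adjusted p = 0.186), and a second tested probe gave 0.17 (adjusted p = 0.903). Tcf7, the related factor best known from T cells, had ratios of -2.93, -3.09 and -2.43 on the marker-positive arrays, against a lowest, median and highest value of -2.93, -2.17 and -1.61 on the marker-negative arrays. The groups overlapped, and its difference was -0.63 (SE 0.34, adjusted p = 0.356). Lymphocyte markers averaged -0.13, -0.20 and 0.81 on the marker-positive arrays, against 1.07 to 3.58 on the marker-negative arrays, with 4 of the 9 measured genes called lower and Cd8a undetected in marker-positive cells, and their part in the Tcf7 values was not tested.

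Axin2, the feedback inhibitor often used as a readout of canonical signalling, differed by 0.14 (SE 0.29, 95% interval -0.50 to 0.79, limma adjusted p = 0.845), with ratios of -0.01, 0.66 and -0.28 on the marker-positive arrays and -0.53 to 0.77 on the marker-negative arrays. It was well above background on 2 arrays of each fraction, so most of its ratios lie near the floor of the measurement. Nkd1, another feedback inhibitor, was 1.64, 1.87 and -0.99 on the marker-positive arrays, against 0.46 to 3.28 on the marker-negative arrays, with a difference of -1.29 (SE 0.78, adjusted p = 0.405), or -0.37 without marker-positive replicate 3 (adjusted p = 0.785). Ctnnb1 differed by 0.67 (SE 0.47, adjusted p = 0.482), and its 2 other tested probes gave 0.56 and 1.48.

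A further 49 genes of the pathway were listed, of which 47 were on the array and 40 were tested. Tle2 and Tle1, which encode corepressors that Tcf and Lef factors recruit, were lower in marker-positive cells, and Cd44, a Wnt target that also served for the sort, was higher. Tle2 had log2 ratios of -1.09, -1.02 and -2.31 on the marker-positive arrays, against a lowest, median and highest value of 0.24, 0.74 and 1.14 on the marker-negative arrays. Its difference was -2.17 (SE 0.36, limma adjusted p = 0.0127), with no overlap. Tle1 had ratios of 2.54, 2.85 and 1.91 on the marker-positive arrays, against a lowest, median and highest value of 3.38, 3.75 and 4.35 on the marker-negative arrays, and its difference was -1.33 (SE 0.30, adjusted p = 0.0432). Leaving out any 1 array ended the Tle1 call, whereas Tle2 kept its call each time, and Cd44 lost its call without marker-positive replicate 1. With slide as a fixed block or with median centring none of the 3 passed. The 40 tested genes had a median difference of -0.04. Their 1 higher and 2 lower calls (7.5%) stand beside 1.57% higher and 1.68% lower over all 20001 genes tested. Cells were sorted on the CD44 protein, so the Cd44 call is not separate from the sort.

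In the authors' deposited table, the fold of stem over non-stem cells was 7.38 for Wnt11, 5.55 for Fzd1 and -7.72 for Sp5, with adjusted p-values of 0.00328, 0.00220 and 0.00897. A negative fold there stands for lower expression in stem cells, and the log2 column of the authors' deposited table has the opposite sign to its fold in all 43379 rows. The authors' deposited table also lists Sfrp2 at 5.98 (adjusted p = 0.00777), Dkk2 at 3.79 (0.0442) and Nkd1 at -2.45 (0.0415). In the tests used here Sfrp2 and Nkd1 did not pass, and Dkk2 was not tested. Its folds for Wnt2 and Wif1 were 18.0 and 16.1, with adjusted p-values of 0.0515 and 0.0556 in the authors' deposited table.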

How the data were processed

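The 9 samples were hybridised to Agilent oligonucleotide arrays of 1 mouse design. Per the labels' protocols, sorted-cell RNA was prepared with PicoPure, amplified by MessageAmp II and labelled by Quick Amp kits, sample in Cy5 and Universal Mouse Reference (Stratagene) in Cy3, with no dye swap. Spot intensity values came from Agilent Feature Extraction, version 10.7 per the submitters' processing notes and 10.7.3.1 per the file headers. The processed intensity values were already background-subtracted and dye-normalized by that software, per the file headers. The log10 ratio listed per the file headers was not used. The authors' deposited table gives log2 columns, a p-value, an adjusted p-value, score columns and a signed fold, with a normalization that the sources used here do not give.

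The normexp method of limma 3.58.1 (R 4.3.3), with an offset of 50, removed the median local background from mean intensities, which were then normalized by loess within arrays with control and outlier spots at weight 0. Outlier spots were dropped, and repeated spots of 1 probe were averaged. Tests covered 28332 of 41174 probes, those well above background in the sample channel of 3 or more arrays. The 3 marker-positive and 6 marker-negative arrays were compared by limma's moderated test, two-sided, with an intensity trend and robust variance, and Benjamini-Hochberg adjustment over all tested probes at 0.05. The number of arrays limits the precision. The procedure was tested on simulated data. Probe positions are those of the scanner files, build mm7:NCBI35:Aug2005, while promoters come from RefSeq, GRCm38.p6. The builds differ and were not set against each other.

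The files place the arrays on 5 slides. Slide 1 held marker-positive and marker-negative replicate 1. On slide 2 were marker-negative replicates 2 and 4 with marker-positive replicate 2. The other slides held 1 fraction each. Replicates are numbered as deposited.

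Members and gene lists were chosen with earlier results of these data known. Called members have their value on each marker-positive array printed, with the lowest, median and highest marker-negative value. The same holds for members whose groups did not overlap and differed by log2 1 or more. It also holds for the 3 members of each role with the smallest adjusted p. Of the other pathway genes, those called are named. Axin2, Fzd3, Fzd5, Lgr5 and Nkd1 were named with values after these had been seen. Alternatives covered the signal, normalization, detection filter, probe rule, array weights, slide as a block and each array left out.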

Additional observations from a re-analysis of the deposited data

Results flagged for a closer look

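The 6 marker-negative arrays were examined in 18 sets, made of the log2 ratios of named Wnt genes and of counts of detected Wnt genes. Of these sets, 2 held an array far from the others by Dixon's gap ratio, and each was a gene's ratios. The counts for all Wnt genes and for each role share genes, so the sets are not independent. Chance alone gives about 1 such set in 20. Wif1 read 3.65 on marker-negative replicate 3, where the gap to the next array was 0.658 of the group's range. Sp5 read 3.04 on marker-negative replicate 6, with a gap ratio of 0.642, and that array still lay above every marker-positive array. Leaving out marker-negative replicate 3 gave a Wif1 difference of 4.60 (limma adjusted p = 0.153), and leaving out marker-negative replicate 6 gave an Sp5 difference of -3.10 (adjusted p = 0.00689). Marker-positive arrays, being 3, were not examined this way.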

How the results depend on the processing

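No paired analysis was possible because replicates are numbered as deposited and the numbers mark no shared animal or day; slides that held both fractions served as a block instead. The alternatives were run on the differences of 13 Wnt genes (Wnt2, Wnt10a, Wnt11, Fzd1, Fzd7, Fzd9, Sfrp2, Wif1, Dkk2, Dkk3, Sp5, Lef1 and Tcf7), none of which changed sign. Of the other Wnt genes whose difference is printed, 5 changed sign within a slide, at -0.05 for Axin2 and -0.52 for Lgr4 on slide 1, 0.0030 for Nkd1 and 0.74 for Lrp5 on slide 2, and -0.08 and -0.31 for Lrp6 on slides 1 and 2. Prom1, which is not a Wnt gene, also changed sign, at 0.08 on slide 2. With array weights, which gave marker-positive replicate 3 a weight of 0.243, 14 Wnt genes were called higher and 4 lower (Sp5, Sfrp5, Tcf7 and Wnt1), against 2 and 1 without weights, while calls over all genes were 2218 higher and 2279 lower, against 314 and 337. With median centring, and likewise with processed signals, 1 Wnt gene was called higher (Wnt11). Over the array, median centring called 141 genes higher and 88 lower, and processed signals called 222 and 368. Under slide as a fixed block the 2 higher calls were Sfrp2 and Wnt2 and the lower count was 0 (126 and 21 over all genes). With no filter on dim probes the 2 higher calls were Wnt11 and Dkk2, and with probes detected in both channels on all arrays they were Wnt11 and Sfrp2, with 0 lower because Sp5 was then not tested. Over all genes, no filter called 221 higher and 229 lower of 27962. Detection in both channels called 241 and 338 of 12325. Leaving out 1 array gave 1 to 7 higher calls, the 7 without marker-positive replicate 3 (Wnt11, Fzd1, Fzd7, Fzd9, Sfrp2, Wif1 and Wnt2), and 1 lower call each time. Over all genes, leaving out 1 array called 91 to 919 higher and 87 to 493 lower. The 919 and 493, of 19925 tested, were those without marker-positive replicate 3. For the other pathway genes, array weights called 6 higher and 4 lower, against 1 and 2. Averaging the probes of each gene called 0 higher and 1 lower, no filter 1 lower, and median centring and slide as a fixed block 0 in each direction. Leaving out 1 array gave 0 to 1 higher and 1 lower. Where no value shows why a count moved, the cause was not tested. Genes near background in the reference channel (Wif1, Lgr5, Sp5, Prom1) have ratios limited by that channel.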
